A study of Saccharomyces cerevisiae with 12 samples.

Results

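The nuclear-encoded respiratory chain and ATP synthase of *S. cerevisiae* are described here through 36 genes, listed by name for their place in the chain or the enzyme. They are 3 NADH dehydrogenases, 9 subunits of complex III, 2 isoforms of cytochrome c, 9 subunits of complex IV and 13 subunits of ATP synthase. Of these genes, 34 were measured by 1 probe each, among 6019 genes and unnamed open reading frames in all. No probe was matched to *QCR10* or *COX7*, which were not analysed here.

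In yeast mitochondria, electrons of NADH enter the chain through the NADH dehydrogenases Ndi1, Nde1 and Nde2, since this species has no proton-pumping complex I. They pass by way of ubiquinone to complex III, then by cytochrome c to complex IV, which reduces oxygen. The proton gradient built by complexes III and IV drives ATP synthase. Most subunits come from nuclear genes, many of which are repressed in cells growing on glucose and are controlled by the Hap2/3/4/5 activator and by heme.

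The cells were wild-type *S. cerevisiae* JN54, a *MATa* strain with mutations in *his3*, *leu2*, *ura3*, *trp1* and *lys2*, growing in YPD, a rich glucose medium, at 30°C. They were moved to YPD warmed to 43°C for 30 or 60 min, while the control cells stayed at 30°C. Their poly(A)+ RNA (Cy5) and that of the control cells (Cy3) were hybridized together to a cDNA microarray, in 3 experiments at each time and thus on 6 arrays. The dyes were never swapped as far as the methods say, and a probe's dye bias and the heat shock cannot be told apart. In RNA of whole cultures a ratio shows a change in the share of a transcript, and less RNA per cell cannot be told apart from it.

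Each array was scanned at high and low laser power, and the values of both scans differed in 0 values, so each array was counted once. An array held 6132 to 6162 values with a median log ratio between -0.01 and 0.03 and a median absolute deviation between 0.38 and 0.70, lowest in experiment 3 at each time. The base of the logarithm is not named, and the values were read as log2, so that 1 stands for 2-fold. *HSP12* and *SSA4*, which encode inducible heat-shock proteins, lay above 0 on all 6 arrays, at 3.79 to 5.51 and 2.28 to 5.30, which sets the direction as 43°C over 30°C. The mean ratio at each time was tested against 0 with limma, and a gene is said to have risen or fallen where the p-value adjusted over all 6019 features was under 0.05. The methods call the experiments independent but do not mention separate cultures, and the p-values measure only the spread between these arrays.

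After 60 min of mild heat shock more genes of ATP synthase, complex III and complex IV fell than rose, and *CYC7*, the stress-inducible isoform of cytochrome c, had the highest mean ratio of the 34 members at both times. At 30 min 7 members fell and 3 rose, and at 60 min 14 fell and 3 rose. With 1 array, or both arrays of 1 experiment, left out, 2 to 9 fell at 30 min and 5 to 15 at 60 min. From 1 to 3 rose at each time, and the fewest falls at 60 min were without both arrays of experiment 2. The shares of all features with arrays left out were not counted, so these ranges have no background beside them. Among all features 15.9% fell and 10.7% rose at 30 min, so the shares of members at that time, 20.6% and 8.82%, were near the background. At 60 min 41.2% of members fell, against 18.2% of all features, while 8.82% rose, against 15.6%. The members had a median log2 ratio of -0.18 after 30 min and -0.39 after 60 min, against -0.01 and 0.01 for all features.

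The spread between arrays was wider at 60 min, with a median SD of 0.32 at 30 min and 0.45 at 60 min over the members and of 0.27 and 0.45 over all features, and the test used 1 estimate of it for both times. With each time fitted alone, 11 members fell at 30 min, when 24% of all features did, and 12 at 60 min, when 12.5% did. In that fit 3 and 1 members rose, when 21.2% and 8.56% of all features did. With array weights 12 fell at each time (28.4% and 17.2% of all features), and with each print block (36 spots whose probe IDs begin with the same digits) centred on its median, 12 and 14 did (18.3% and 17.9%).

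*COR1*, *COX5A*, *ATP1*, *ATP2*, *ATP4* and *ATP5* fell at both times. *CYC7* and *COX5B* rose at both times, and 15 of the 34 members passed the test at neither time. Of all 6019 features 694 fell at both times, 459 rose at both and 3530 passed at neither. Between 60 and 30 min, 0 of the 34 members passed the test of the difference in limma, as did 0% of all features, and the larger number of falls at 60 min is therefore not shown to be a difference between the times. At an unadjusted p under 0.05, 4 members (*NDE1*, *QCR2*, *ATP17* and *ATP20*) and 516 of all features differed. With array weights 6 features passed that test, and with the experiment number as a block 1 did.

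The arrays differed in how far the members lay from 0. At 30 min 25, 22 and 18 of the 34 members were below 0 in experiments 1, 2 and 3, with medians of -0.46, -0.16 and -0.06, and at 60 min 22, 26 and 17 were, with medians of -0.53, -0.70 and -0.01. Experiment 3, whose arrays had the narrowest spread over all features, thus had the member median nearest to 0 at both times. In all 6 arrays, 8 members were below 0, a share of 23.5% against 21.4% of all features, and 3 were above 0, a share of 8.82% against 18.8%. The first share was near the background and the second was below it. Of the 27 calls of members at 30 or 60 min, 9 held whichever array or experiment was left out: those of *CYC7*, *ATP1* and *ATP2* at both times and of *COX5A*, *ATP4* and *ATP5* at 60 min.

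**Figure D1:**
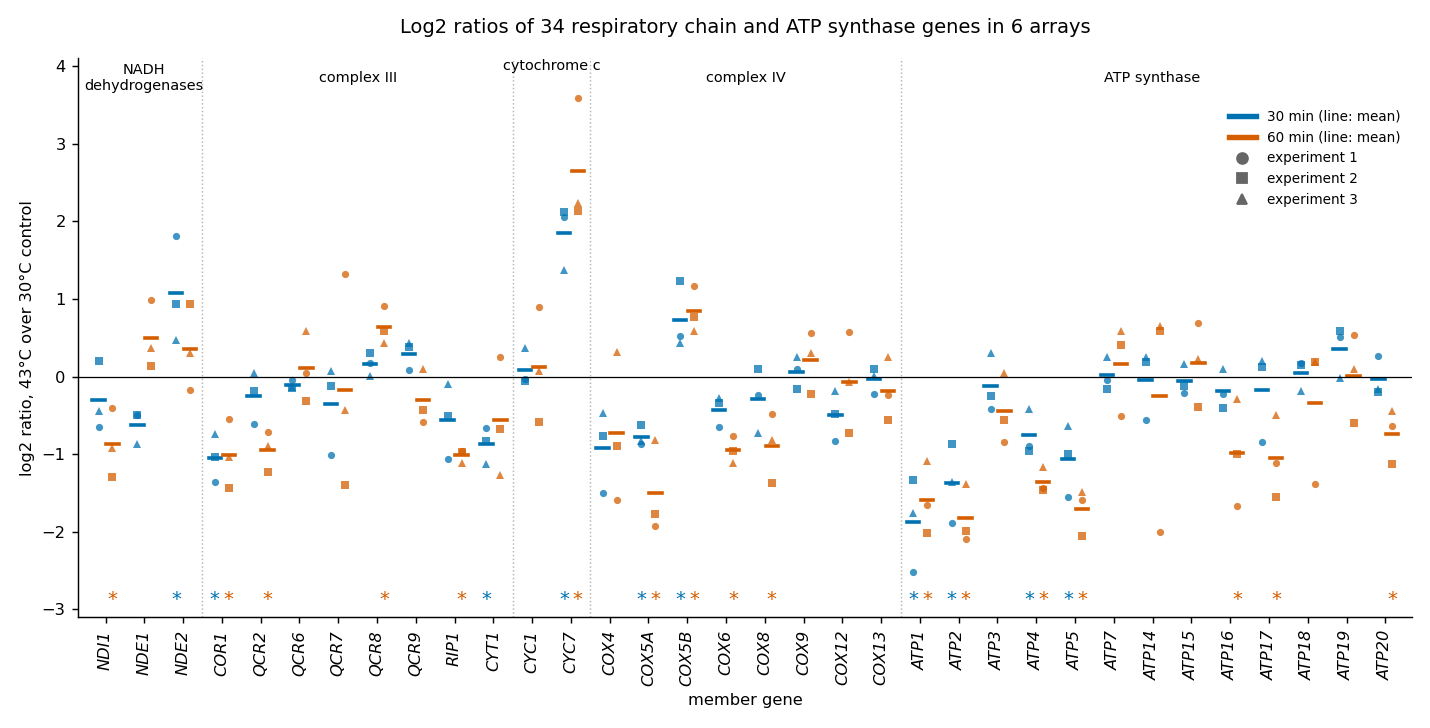
Log2 ratio of 43°C over 30°C (vertical axis) of the 34 measured members, grouped by class along the horizontal axis, with 1 point for each array (circle, square and triangle for experiments 1, 2 and 3), blue at 30 min and orange at 60 min, short lines at the mean of 3 arrays, and asterisks where the limma adjusted p was under 0.05. At each time the mean of *CYC7* lies above those of all other members, and the lowest point belongs to *ATP1*.

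The lowest mean ratios of all members were those of *ATP1* at 30 min and *ATP2* at 60 min, which belong to the catalytic head of ATP synthase (F1). *ATP1* (YBL099W), which encodes the alpha subunit, had log2 ratios of -2.52, -1.33 and -1.76 at 30 min and -1.65, -2.01 and -1.09 at 60 min in experiments 1, 2 and 3. *ATP2* (YJR121W), which encodes the catalytic beta subunit, had -1.88, -0.88 and -1.35 at 30 min and -2.10, -1.99 and -1.38 at 60 min. All 12 of these values are below 0, and all but 1 are past a 2-fold decrease. The mean of *ATP1* was -1.87 ± 0.60 (SD, n = 3, adjusted p = 0.000782 from limma) at 30 min and -1.59 ± 0.46 (adjusted p = 0.00147) at 60 min, and that of *ATP2* was -1.37 ± 0.50 (adjusted p = 0.00285) and -1.82 ± 0.39 (adjusted p = 0.000392). At 60 min the ratio of *ATP1* was thus 3.00-fold and that of *ATP2* 3.54-fold lower than in the control.

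Of the 3 other F1 genes 1 fell, at 60 min. Over all 5 F1 genes 40% fell at 30 min and 60% at 60 min, against 15.9% and 18.2% of all features. *ATP16*, which encodes the delta subunit of the central stalk, had a mean of -0.18 at 30 min and fell by 0.99 on the log2 scale at 60 min (adjusted p = 0.0156 from limma), from values of -1.67, -0.997 and -0.29. Its call was lost without experiment 1 or without experiment 2 at 60 min (adjusted p up to 0.0972), and with array weights (mean -0.58, adjusted p = 0.0965). *ATP3*, which encodes the gamma subunit, had means of -0.12 and -0.45, and *ATP15*, which encodes the epsilon subunit, had -0.06 and 0.18, and neither passed the test at either time. The proteins of *ATP1* and *ATP2* are present in several copies in each enzyme and those of the 3 other genes in 1.

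Among the 8 genes for the peripheral stalk and the membrane part of ATP synthase, 2 fell at 30 min and 4 at 60 min. These are 25% and 50%, against 15.9% and 18.2% of all features. *ATP5* (YDR298C), which encodes the subunit that joins the stalk to F1 (OSCP), had log2 ratios of -1.56, -0.99 and -0.64 at 30 min and -1.59, -2.06 and -1.49 at 60 min. *ATP4* (YPL078C), which encodes subunit b of the stalk, had -0.90, -0.96 and -0.41 at 30 min and -1.44, -1.46 and -1.16 at 60 min. For both genes the 3 values at 60 min agreed more closely than those at 30 min. The means of *ATP5* were -1.06 ± 0.46 (SD, n = 3, adjusted p = 0.00788 from limma) and -1.71 ± 0.30 (adjusted p = 0.000408), and those of *ATP4* were -0.76 ± 0.30 (adjusted p = 0.0219) and -1.35 ± 0.17 (adjusted p = 0.000808). At 30 min the calls of both genes were lost without experiment 1 or without experiment 2 of that time (adjusted p up to 0.101 for *ATP5* and 0.185 for *ATP4*). That of *ATP4* was lost without both arrays of experiment 3 as well.

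*ATP17* and *ATP20*, which encode subunits f and g of the membrane part, had means of -0.17 and -0.03 at 30 min and fell at 60 min. The values of *ATP17* at 60 min were -1.11, -1.56 and -0.49 (mean -1.05, adjusted p = 0.0137 from limma). Those of *ATP20* were -0.64, -1.12 and -0.44 (mean -0.74, adjusted p = 0.0247). Both genes were lowest in experiment 2, and without that array both calls were lost (adjusted p up to 0.128 and 0.201). That of *ATP20* was lost without both arrays of experiment 3 as well. Both calls were also lost with array weights (adjusted p = 0.0610 and 0.0623), and that of *ATP20* with each time fitted alone (adjusted p = 0.0878). *ATP7*, *ATP14*, *ATP18* and *ATP19*, which encode subunits d, h, i/j and k, passed the test at neither time, with means between -0.04 and 0.36 at 30 min and between -0.34 and 0.16 at 60 min.

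For 2 of these genes 1 array stood apart at 60 min. *ATP14* had -2.01 in experiment 1 against 0.59 and 0.65 in the others, and *ATP18* had -1.39 against 0.19 in each of the others. Over all 13 genes of ATP synthase, 4 fell at 30 min and 7 at 60 min and 0 rose at either time by limma, at an unadjusted p under 0.05 as well. The falls were 30.8% and 53.8% of the class, against 15.9% and 18.2% of all features. The class median was -0.12 at 30 min and -0.74 at 60 min. The median of the class in an array was -0.42, -0.19 and -0.02 at 30 min and -1.39, -0.999 and -0.29 at 60 min, so the ranges of both times overlapped.

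**Figure D2:**
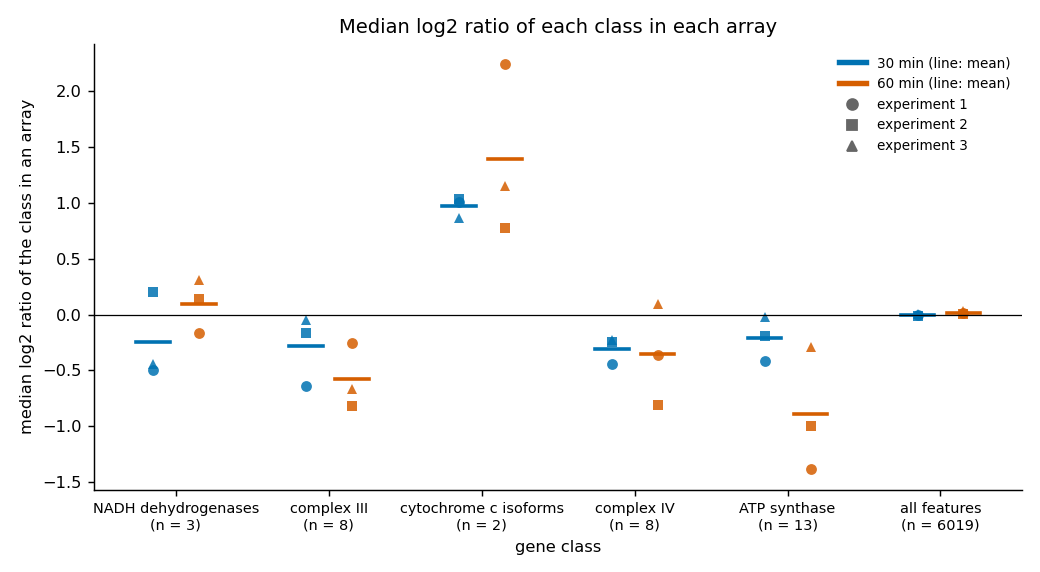
Median log2 ratio of each class of genes in each array (vertical axis) for the 5 classes and for all 6019 features (horizontal axis), with 1 point for each array, blue at 30 min and orange at 60 min, and lines at the mean of the 3 array medians. The ATP synthase points at 60 min reach from -1.39 to -0.29, while all features stay between -0.01 and 0.03.

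In complex III, 2 of the 8 measured genes fell at 30 min and 3 at 60 min, and 1 rose at 60 min. These are 25% and 37.5% against 15.9% and 18.2% of all features that fell, and 12.5% against 15.6% that rose, and in 8 genes a share moves by 12.5% with each gene. *COR1* (YBL045C) and *QCR2* (YPR191W) encode the core proteins, *RIP1* (YEL024W) the Rieske iron-sulfur protein and *CYT1* (YOR065W) cytochrome c1. *COR1* had log2 ratios of -1.36, -1.04 and -0.73 at 30 min (mean -1.04, adjusted p = 0.00838 from limma) and -0.55, -1.43 and -1.04 at 60 min (mean -1.01, adjusted p = 0.00816). *QCR2* had -0.61, -0.18 and 0.04 at 30 min (mean -0.25, adjusted p = 0.404) and -0.72, -1.23 and -0.90 at 60 min (mean -0.95, adjusted p = 0.00768). The core genes were thus at like levels below the control at 60 min, and at 30 min *COR1* was the lower of them in each array.

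*RIP1* had -1.06, -0.51 and -0.10 at 30 min (mean -0.56, adjusted p = 0.0894 from limma) and -0.96, -0.97 and -1.11 at 60 min (mean -1.01, adjusted p = 0.00672). Its SD at 60 min, 0.08, was the smallest of the members at that time. *CYT1* had -0.66, -0.82 and -1.13 at 30 min (mean -0.87, adjusted p = 0.0382) and 0.26, -0.67 and -1.26 at 60 min (mean -0.56, adjusted p = 0.139), so its values spread at the later time. Without experiment 1 at 60 min the mean of *CYT1* was -0.97 and passed the test (adjusted p = 0.0143), as it did with array weights (adjusted p = 0.0110) and with print blocks centred (adjusted p = 0.0137). These catalytic and core genes lay below 0 in all arrays but 1 for *CYT1* and 1 for *QCR2*.

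The calls of complex III depended on the number of arrays. At 30 min that of *CYT1* was lost without any of the 3 arrays of that time (adjusted p up to 0.169), and that of *COR1* without experiment 1 or without experiment 2 (adjusted p up to 0.0945). At 60 min no array of that time decided the calls of *COR1*, *QCR2* and *RIP1*, but they were lost when both arrays of experiment 2 were left out (adjusted p up to 0.0979, 0.0876 and 0.0541), as was that of *COR1* without both arrays of experiment 3.

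Of the 4 smaller subunits of complex III that were measured, 1 rose and 0 fell by limma. Among all features 10.7% rose and 15.9% fell at 30 min, and 15.6% rose and 18.2% fell at 60 min. *QCR8* (YJL166W) had 0.17, 0.30 and 0.01 at 30 min and 0.92, 0.58 and 0.44 at 60 min, above 0 in all 6 arrays, and rose at 60 min (mean 0.64, adjusted p = 0.0316 from limma). This call was lost in 8 of the 9 settings that left out arrays, and held without experiment 3 at 60 min alone (adjusted p from 0.0480 to 0.144). It was also lost with each time fitted alone, with array weights and with print blocks centred (adjusted p up to 0.141). *QCR6*, which encodes the acidic hinge protein, had means of -0.11 and 0.10, and *QCR9* had 0.30 and -0.31. *QCR7* had 1.32, -1.40 and -0.43 at 60 min, the widest spread in this complex, around a mean of -0.17, and without experiment 1 at that time its mean was -0.92 and passed the test (adjusted p = 0.0469).

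In complex IV the isoforms of subunit 5 had opposite signs. *COX5A* (YNL052W) encodes the isoform used in aerobic cells and *COX5B* (YIL111W) that of hypoxic cells, and an enzyme holds one or the other. *COX5A* had log2 ratios of -0.87, -0.62 and -0.82 at 30 min and -1.92, -1.77 and -0.82 at 60 min, and *COX5B* had 0.52, 1.23 and 0.44 at 30 min and 1.17, 0.77 and 0.59 at 60 min. The isoforms did not overlap in any array, with *COX5A* below 0 and *COX5B* above 0 in all 6. *COX5A* fell at both times (mean -0.77, adjusted p = 0.0380 from limma, and mean -1.50, adjusted p = 0.00112), to 2.83-fold below the control at 60 min. *COX5B* passed the test at both times (mean 0.73, adjusted p = 0.0382, and mean 0.84, adjusted p = 0.0175).

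The level of *COX5B* was close to that of its print block. The layout of the array is not given in the sources used here, and the blocks are an inference from the probe IDs. The median log2 ratios of its print block were 0.40, 0.53 and 0.20 at 30 min and 1.09, 0.84 and 0.56 at 60 min, nearly the values of the gene itself at 60 min. With each block centred on its median, *COX5B* had a mean of 0.35 at 30 min (adjusted p = 0.143 from limma) and 0.01 at 60 min (adjusted p = 0.968), and was not called. *COX5A* centred in the same way stayed at -0.91 and -1.31. At 30 min the calls of *COX5A* and *COX5B* were also lost without any of the 3 arrays of that time (adjusted p up to 0.194 and 0.321). At 60 min that of *COX5B* was lost without experiment 1 of that time, and without both arrays of experiment 1, 2 or 3 (adjusted p up to 0.0800). It was lost too with each time fitted alone (adjusted p = 0.0535) and with array weights (adjusted p = 0.0508).

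*COX6* (YHR051W) and *COX8* (YLR395C), small subunits of complex IV, fell at 60 min. *COX6* had -0.66, -0.34 and -0.28 at 30 min (mean -0.43) and -0.76, -0.96 and -1.12 at 60 min (mean -0.95, adjusted p = 0.00525 from limma), below 0 in all 6 arrays. *COX8* had -0.24, 0.09 and -0.72 at 30 min (mean -0.29) and -0.48, -1.37 and -0.82 at 60 min (mean -0.89, adjusted p = 0.0170). The call of *COX8* was lost with print blocks centred (mean -0.33, adjusted p = 0.156). It was also lost without experiment 2 at 60 min, and without both arrays of experiment 2 or of experiment 3 (adjusted p up to 0.141). That of *COX6* was lost without both arrays of experiment 2 or of experiment 3 (adjusted p up to 0.0553).

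*COX4*, which encodes a zinc-binding subunit of complex IV, had -1.50, -0.77 and -0.47 at 30 min and -1.59, -0.90 and 0.31 at 60 min, and missed the threshold at both times (means -0.92 and -0.73, adjusted p = 0.0639 and 0.115 from limma). At 30 min it passed under 4 of the 11 settings that keep every array (lowest adjusted p = 0.00511), and at 60 min without experiment 3 (mean -1.24, adjusted p = 0.0168) and with print blocks centred (mean -1.20, adjusted p = 0.0237). *COX9*, *COX12* and *COX13*, the other small subunits measured, passed at neither time, with means between -0.50 and 0.06 at 30 min and between -0.18 and 0.21 at 60 min. Over the 8 measured genes of complex IV, 1 fell and 1 rose at 30 min and 3 fell and 1 rose at 60 min, with class medians of -0.36 and -0.45. The shares at 30 min, 12.5% each way, were near the background (15.9% and 10.7%), and at 60 min 37.5% fell against 18.2%, and 12.5% rose against 15.6%. In complex III the class medians were -0.30 and -0.43.

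**Figure D3:**
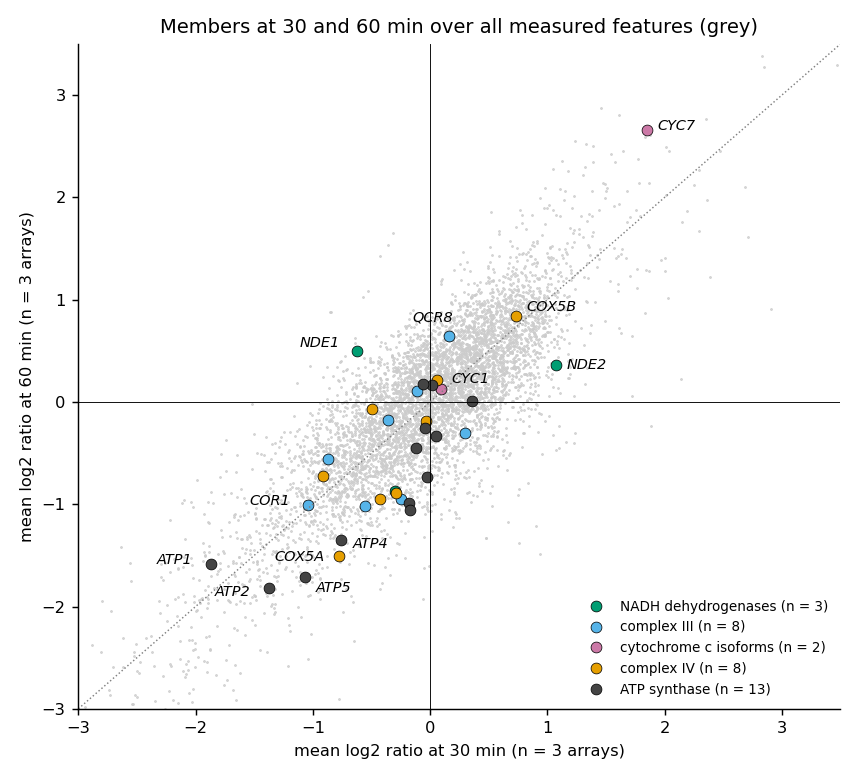
Mean log2 ratio over 3 arrays at 30 min (horizontal axis) against that at 60 min (vertical axis) for all measured features (grey) and the 34 members (coloured by class), with a dotted line where both are equal and features beyond the ends of the axes not drawn. The ATP synthase genes *ATP1*, *ATP2*, *ATP4* and *ATP5* lie at the lower left, *CYC7* at the upper right at 1.85 and 2.65, and *NDE1* and *NDE2* away from the line on opposite sides.

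Of the isoforms of cytochrome c, the electron carrier between complexes III and IV, only *CYC7* rose. *CYC1* (YJR048W) encodes isoform 1, the main form of aerobic cells, and *CYC7* (YEL039C) isoform 2. *CYC7* had log2 ratios of 2.06, 2.12 and 1.37 at 30 min and 3.59, 2.14 and 2.24 at 60 min, and *CYC1* had -0.04, -0.06 and 0.36 at 30 min and 0.90, -0.59 and 0.08 at 60 min. The lowest value of *CYC7* was above the highest of *CYC1*. The mean of *CYC7* stood for 3.60-fold and 6.30-fold increases (adjusted p = 0.00144 and 0.000135 from limma), and the means of *CYC1*, 0.09 and 0.13, did not pass the test (adjusted p = 0.824 and 0.744). With 1 gene of each kind, the class medians of 0.97 and 1.39 describe neither.

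Within the arrays, the difference of *CYC7* minus *CYC1* was 2.09, 2.18 and 1.00 at 30 min and 2.69, 2.73 and 2.16 at 60 min. Its mean was 1.76 ± 0.65 (SD, n = 3) and 2.53 ± 0.32 (SD, n = 3), and an exact two-sided sign-flip permutation test gave p = 0.25 at each time, the smallest p that 3 arrays allow. *COX5B* minus *COX5A* was 1.39, 1.85 and 1.26 at 30 min and 3.09, 2.54 and 1.40 at 60 min. Its mean was 1.50 ± 0.31 (SD, n = 3) and 2.34 ± 0.86 (SD, n = 3), with the same exact p of 0.25. Both differences were above 0 in every array, and with print blocks centred that of the *COX5* pair at 60 min was 1.32 and that of the *CYC* pair 3.41. Transcripts of similar genes can bind each other's probes on a cDNA array, and how far this affected the pairs was not tested.

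**Figure D4:**
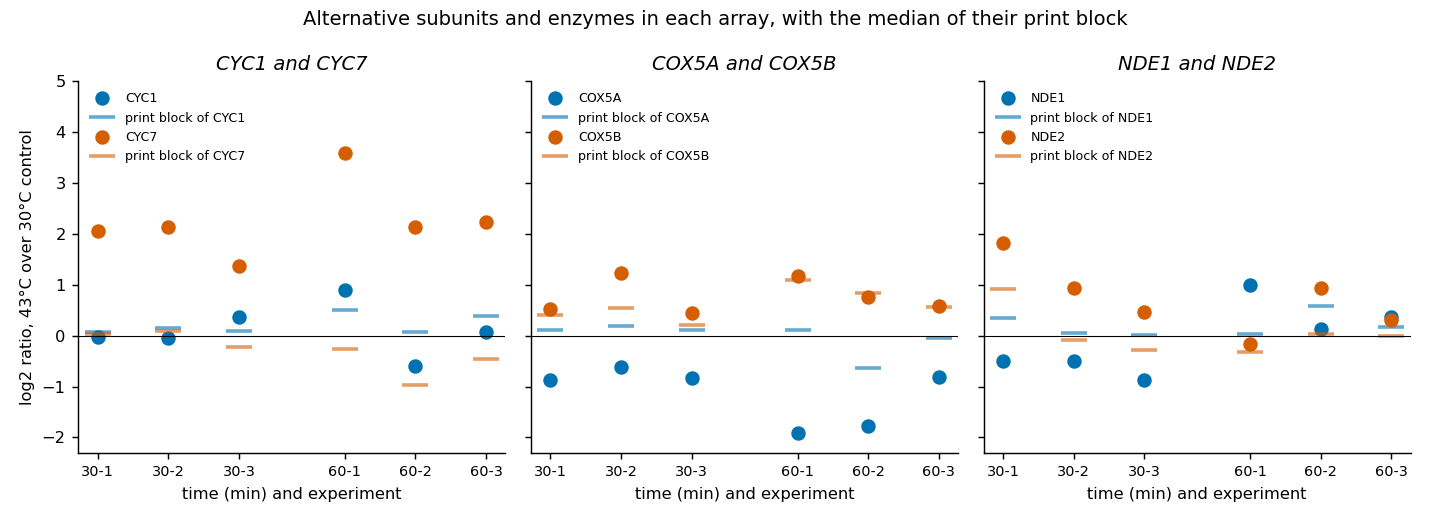
Log2 ratio (vertical axis) of *CYC1* and *CYC7*, *COX5A* and *COX5B*, and *NDE1* and *NDE2* in each array (horizontal axis, time in min and experiment), with short lines at the median of the print block of each probe. *CYC7* lies far from its block in every array, while *COX5B* at 60 min lies at the median of its block (1.09, 0.84 and 0.56).

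Of the NADH dehydrogenases, *NDE2* rose at 30 min and *NDI1* fell at 60 min. *NDI1* (YML120C) encodes the enzyme that faces the matrix, and *NDE1* (YMR145C) and *NDE2* (YDL085W) those that oxidize cytosolic NADH. *NDI1* had log2 ratios of -0.65, 0.21 and -0.44 at 30 min (mean -0.30) and -0.40, -1.29 and -0.92 at 60 min, where it fell (mean -0.87, adjusted p = 0.0202 from limma). *NDE2* had 1.82, 0.93 and 0.47 at 30 min, where it rose (mean 1.07, adjusted p = 0.0207), and -0.17, 0.94 and 0.31 at 60 min (mean 0.36, adjusted p = 0.360). *NDE1* had -0.50, -0.49 and -0.87 at 30 min and 0.99, 0.14 and 0.37 at 60 min, and passed at neither time (means -0.62 and 0.50, adjusted p = 0.0626 and 0.110). *NDE1* and *NDE2* thus had opposite signs in each array at 30 min, and at 60 min in experiment 1 only.

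The call of *NDE2* at 30 min was lost without experiment 1 or without experiment 2 of that time (adjusted p up to 0.206). That of *NDI1* at 60 min was lost without experiment 2 or without experiment 3 of that time (adjusted p up to 0.134), with each time fitted alone (adjusted p = 0.0528) and with print blocks centred (mean -0.50, adjusted p = 0.237). *NDE1* at 30 min would pass under 4 of the 11 other settings, among them array weights and centred blocks, with adjusted p-values from 0.00674 to 0.0661 over all 11.

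By the rule of the study, a ratio over 2-fold in at least 2 of the 3 experiments, *CYC7* was the only member up-regulated at either time, 2.94% of the members against 4.42% of all features at 30 min and 6.89% at 60 min. Down-regulated members were *COR1*, *ATP1* and *ATP2* at 30 min, a share of 8.82% against 10.2% of all features. At 60 min they were *COR1*, *COX5A*, *ATP1*, *ATP2*, *ATP4*, *ATP5* and *ATP17*, a share of 20.6% against 10.5%. Of these 7 genes 5 belong to ATP synthase. The number of members past a 2-fold decrease in an array was 7, 2 and 3 at 30 min and 10, 12 and 8 at 60 min. All features past it were not counted by array, so these numbers have no background. The median absolute deviation over all features was 0.56, 0.51 and 0.38 at 30 min, and wider, 0.64, 0.70 and 0.41, at 60 min.

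Genes other than the members that belong to the chain or serve it were examined in 9 lists of 103 genes, of which 97 were measured. They include the nuclear genes of complex II. In all, 10 rose and 7 fell at 30 min and 12 rose and 16 fell at 60 min, with medians of -0.0035 and -0.08. The shares, 10.3% and 7.22% at 30 min and 12.4% and 16.5% at 60 min, were below those of all features (10.7% and 15.9%, then 15.6% and 18.2%). None of the alternative settings was run for these genes, neither those that leave out arrays nor array weights, print-block centring or each time fitted alone. *DLD1*, *COX1*, *COB*, *FMP35*, *PET122* and *HAP1* could not be matched to a probe.

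ATP synthase depends on carriers that move ADP, ATP and phosphate across the mitochondrial membranes. Of the 7 genes for ADP/ATP carriers, phosphate carrier and porins, 2 fell at 30 min and 5 at 60 min (28.6% and 71.4%, against 15.9% and 18.2% of all features), and 0 rose by limma. *PET9*, the main ADP/ATP carrier, had -1.42, -1.08 and -0.63 at 30 min and -2.18, -2.05 and -1.47 at 60 min (means -1.04 and -1.90, adjusted p = 0.00861 and 0.000229). *MIR1*, the phosphate carrier, had -1.83, -1.22 and -1.29 at 30 min and -2.28, -1.51 and -1.44 at 60 min (means -1.45 and -1.74, adjusted p = 0.00163 and 0.000398). At 60 min *AAC3*, the ADP/ATP carrier of anaerobic cells, and *POR2*, a porin of the outer membrane, had means of -0.83 and -1.08 and fell too. At 30 min neither passed the test (means 0.42 and -0.28, adjusted p = 0.166 and 0.368 from limma). *AAC3* then had 0.74, 0.25 and 0.25, opposite in sign to *PET9* in each array. Similar sequences again limit how far *PET9* and *AAC3* can be told apart.

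Heme is the cofactor of the cytochromes in complexes III and IV and of cytochrome c. Of the 8 genes of heme synthesis, 3 fell at 30 min and 5 at 60 min (37.5% and 62.5%, against 15.9% and 18.2% of all features), and 0 rose by limma. *HEM12*, which encodes uroporphyrinogen decarboxylase, had -1.56, -1.66 and -0.84 at 30 min and -1.40, -1.25 and -1.81 at 60 min (adjusted p = 0.00211 and 0.000861). *HEM2*, which encodes the enzyme of the second step, and *HEM1*, that of the first, fell at both times, with means of -0.98 and -1.16 for *HEM2* and -0.88 and -0.58 for *HEM1*. *HEM4* fell at 60 min (mean -0.85). The median of the list was -0.22 at 30 min and -0.63 at 60 min. In ubiquinone synthesis 0 of 10 genes passed limma at either time, with medians of -0.13 and -0.22.

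The genes of proteins that assist or inhibit ATP synthase that passed the test did so upwards. The list held 10 genes, of which 2 rose at 30 min, 4 rose at 60 min and 0 fell by limma. The rises were 20% and 40% against 10.7% and 15.6% of all features. It includes *TIM11*, which encodes a subunit of the enzyme itself and passed at neither time (means -0.35 and -0.53). *STF1*, which encodes a protein that acts with the inhibitor of the enzyme's ATP hydrolysis, had 1.47, 1.70 and 1.71 at 30 min and 1.79, 1.09 and 1.44 at 60 min (means 1.63 and 1.44, adjusted p = 0.000464 and 0.000626). *STF2*, named for the same inhibitor complex, had means of 0.77 and 1.00 (adjusted p = 0.0299 and 0.00787). *FMC1*, needed for assembly of F1 at high temperature, and *ATP10*, needed for assembly of the membrane part, rose at 60 min (means 0.99 and 0.80). *INH1*, which encodes the inhibitor itself, had means of 0.57 and -0.34 and passed at neither time (adjusted p = 0.0708 and 0.241 from limma). Of the 10 means, 4 were below 0 at 30 min and 5 at 60 min. The median of the list, 0.19 and -0.05, did not follow the genes that rose.

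Among 28 measured genes for assembly of complexes III and IV and for cytochrome maturation, 2 rose and 1 fell at 30 min, and 3 rose and 4 fell at 60 min. All of these shares (7.14% and 3.57%, then 10.7% and 14.3%) were below those of all features (10.7% and 15.9%, then 15.6% and 18.2%), so the genes named are single cases. *CYC3*, which encodes the lyase that attaches heme to cytochrome c, had 1.14, 1.26 and 1.05 at 30 min and 2.07, 1.37 and 1.03 at 60 min (means 1.15 and 1.49, adjusted p = 0.00535 and 0.00089 from limma). *CYC3* thus moved in the direction of *CYC7*. *COX11*, which delivers copper to complex IV, fell at both times (means -0.89 and -1.02), and *COX10*, which makes heme O, the precursor of heme A, fell at 60 min (mean -1.06). *CBP6*, which acts on cytochrome b, rose at both times (means 0.76 and 0.91).

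Of 14 measured genes in the list of mRNA-specific activators of mitochondrial translation, 2 rose at 30 min, and 3 rose and 1 fell at 60 min, with rises of 14.3% and 21.4% against 10.7% and 15.6% of all features. *NCA3* had the highest means in it, 1.79 and 1.82, but is named for its effect on *ATP6* and *ATP8* mRNA and belongs to the SUN family of cell wall proteins. *CBS1* and *CBS2* both serve the mRNA of cytochrome b, and had opposite signs. *CBS1* rose at both times (means 0.63 and 0.59), near the threshold (adjusted p = 0.0434 and 0.0472 from limma). *CBS2* had means of -0.60 and -1.41 and fell at 60 min. *PET111*, the activator of *COX2*, rose at 60 min (mean 0.74).

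The other donors of electrons moved in both directions. In their list 33.3% rose at 30 min and 16.7% at 60 min, against 10.7% and 15.6% of all features. The falls were 16.7% at each time, against 15.9% and 18.2%. Among 6 measured genes of complex II and other dehydrogenases, *GUT2*, the glycerol-3-phosphate dehydrogenase of the inner membrane, rose at both times (means 1.06 and 1.04, adjusted p = 0.00549 and 0.00481 from limma), and *CYB2*, the lactate dehydrogenase that reduces cytochrome c, rose at 30 min (mean 1.31). Of the 4 genes of complex II, *SDH3* fell at 30 min (mean -0.90) and *SDH2* at 60 min (mean -1.19), while *SDH1* (means -0.23 and -0.32) and *SDH4* (means 0.24 and 0.05) passed at neither time. Of 9 measured regulators of respiration only *HAP3*, a subunit of the Hap2/3/4/5 activator, passed the test. It rose at both times (means 0.90 and 0.72, adjusted p = 0.0230 and 0.0454 from limma). The share that rose, 11.1% at each time, was near that of all features at 30 min (10.7%) and below it at 60 min (15.6%). Of 5 measured subunits encoded in mitochondrial DNA, whose mRNAs lack poly(A) tails in yeast, 1 passed, *ATP8* at 30 min (mean 0.88). Its value in experiment 1 at 60 min is missing. This 1 gene makes 20% of that list, against 10.7% of all features that rose at 30 min.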

How the data were processed

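RNA of *S. cerevisiae* JN54 exposed to 43°C for 30 or 60 min was compared with that of cells kept at 30°C on 6 cDNA microarrays (Cy5 over Cy3). The authors quantified the spots with GenePix, and calculated and normalized the ratios on negative control spots with Chip Cleanser. The deposited values are log ratios read as log2, with an unnamed base, and intensities were not used, so the number of arrays limits the precision. Of 6912 probes 6162 had values, and 716 of these carry no gene symbol. Probes of 1 gene were averaged and probes with identical values counted once, which left 6019 features, 5376 of them named. Names came from the platform annotation. Positions are left out, since the sources name no build.

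A linear model with a mean for each time was fitted to all features in limma 3.58.1 (R 4.3.3), and its variances were moderated by empirical Bayes (degrees of freedom: 4 residual, 6.76 prior), with p-values adjusted by Benjamini and Hochberg at 0.05. It was first tested on simulated data. Genes past 2-fold in 2 or more of the 3 experiments, the selection of the study, were counted too. Every member is named, as are HSP12, SSA4 and at most 4 genes of a pathway list, by largest absolute mean among those that passed. Named outside this rule are *SDH1*, *SDH4*, *TIM11* and *INH1*, which did not pass, and the listed genes without a probe. The members and lists were chosen with earlier results of these data known. Alternatives were other scaling, weights, filters, print-block centring (192 blocks), the experiment number as a block, another base and leaving out arrays. The *ssa1/2* deletion mutant of the study was not analysed here.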

Additional observations from a re-analysis of the deposited data

Results flagged for a closer look

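The ratio of *NDE1*, which encodes an external NADH dehydrogenase, had opposite signs at the 2 times, below 0 in each array at 30 min (mean log2 ratio -0.62) and above 0 in each at 60 min (mean 0.50). The difference of 60 minus 30 min was 1.12 in limma (unadjusted p = 0.00491, adjusted p = 0.449), and did not pass the test. Of all 6019 features 144, or 2.39%, had such opposite signs.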

How the results depend on the processing

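Of the 27 calls of members, 19 held under all 11 settings that keep every array. Not all of these could change a call. The high and low power scans gave identical values, so each scan taken alone repeated the main analysis. With the probes of a gene kept apart, the ratios of the members were the same. Of the 1360 values recomputed for members, 0 changed sign as a called value. Many settings leave the mean of a member as it was, so this count does not measure stability. Each time fitted alone, array weights and centred print blocks gave 11, 12 and 12 members that fell at 30 min, against 24%, 28.4% and 18.3% of all features. In each case 1 member rose at 60 min, against 8.56%, 12.7% and 15.1% of all features. With array weights 6 of all features differed between the times, and with the replicate block 1, against 0. With print blocks centred, *CYC7* minus *CYC1* was 3.41 and *COX5B* minus *COX5A* 1.32 at 60 min. With arrays scaled to 1 spread the median of the cytochrome c isoforms at 30 min was 1.07. The cause of these shifts was not tested.

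Arrays were not paired by experiment number, since the deviations of same-numbered arrays from their time's mean correlated at -0.04, 0.13 and 0.35. With the replicate block, 3 members rose and 7 fell at 30 min, 3 rose and 14 fell at 60 min, and 0 differed between the times, so no count of members changed.

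By the fold rule, over 2-fold in all 3 experiments left 1 member down at 30 min and 4 at 60 min, and the mean ratio gave 2 up at 30 min. Read as natural logarithms, 2 and 2 members were up and 8 and 14 down at 30 and 60 min, and read as log10, a reading added after the data were seen, 5 and 8 were up and 13 and 19 down. Of all features 14% and 14.8% were then up and 17% and 17.8% down as natural logarithms, and 32.7% and 35.2% up and 32.9% and 32% down as log10, against 4.42% and 6.89% up and 10.2% and 10.5% down as log2.

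With arrays left out, and so fewer arrays in the test, the members that rose numbered 1 to 3 at each time. Those that fell numbered 2 to 9 at 30 min and 5 to 15 at 60 min, and all features that differed between the times 0 to 3. The shares of all features that rose or fell in these settings were not counted. Members 2-fold down numbered 1 to 2 at 30 min and 4 to 6 at 60 min, against 3 and 7 with all arrays. The rule then needed both of the 2 arrays left at a time, so these counts could not rise. The class medians at 30 and 60 min ranged from -0.55 to -0.12 and 0.070 to 0.38 for the NADH dehydrogenases, -0.48 to -0.11 and -0.94 to -0.36 for complex III, 0.94 to 1.02 and 0.97 to 1.70 for cytochrome c, -0.47 to -0.29 and -0.63 to -0.32 for complex IV, and -0.32 to -0.01 and -0.88 to -0.64 for ATP synthase. *CYC7* minus *CYC1* ranged from 1.55 to 2.14 and 2.43 to 2.71, and *COX5B* minus *COX5A* from 1.33 to 1.62 and 1.97 to 2.81.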

Other observations

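The 34 members lay in 31 print blocks. *CYC7* and *COX8* shared a block whose median, averaged over arrays, was -0.03 at 30 min and -0.56 at 60 min, and centring moved *CYC7* at 60 min from 2.65 to 3.22 and *COX8* from -0.89 to -0.33. The blocks accounted for a share of 0.159 to 0.332 of the variance within an array after subtracting each feature's mean at that time. Their part in the values of single genes was not tested beyond the centring.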
